A study of Mus musculus with 6 samples.

Results

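Motile cilium and axoneme genes were taken from the deposited gene table as the rows whose symbols begin with Dnah, Dnai, Cfap, Rsph, Spag or Drc, together with Foxj1, Ccdc153, Tmem212, Ak7, Enkur, Cdhr3 and Dynlrb2. Names ending in os were left out, and a mean of at least 5 normalized read counts over the 6 libraries was required. The names matched 82 rows and 79 of them reached that level, of 28162 genes in the table. The level limit takes the mean of all 6 libraries and does not use the group labels. The means nearest to the limit were 5.66 for Dnai3, 6.20 for Cfap77 and 6.36 for Rsph14 above it, and 1.97 for Cfap58, 1.66 for Cfap221 and 1.40 for Cfap97d1 below it.

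The libraries were made from polyadenylated RNA of ventral lumbar cord tissue. All mice carried SOD1G93A, a mutant human superoxide dismutase 1 transgene used as a model of amyotrophic lateral sclerosis, so no group of healthy mice entered the comparison. The AAV-NDNF mice received an adeno-associated virus (AAV) with NDNF, a secreted neurotrophic factor, into the intrathecal space on postnatal day 74. The AAV-GFP mice received a virus with green fluorescent protein by the same route on the same day, and tissue of both groups was taken on day 104. Each group held 3 libraries. The sources used here name neither the promoter and serotype of the virus nor whether animals were pooled. The libraries held 15335789 to 20060987 reads on genes. Ndnf itself had 5286, 7077 and 674 normalized counts in AAV-NDNF libraries 1 to 3, against 171, 128 and 158 in AAV-GFP libraries 1 to 3. Every AAV-NDNF library was thus above every AAV-GFP library, and AAV-NDNF library 3 held the least of its group (log2 fold change 4.27, limma adjusted p = 0.539).

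A motile cilium beats because dynein motors slide the outer microtubule doublets of its axoneme past each other, while radial spokes and a central pair of microtubules set the waveform. In the spinal cord, motile cilia are carried by the ependymal cells that line the central canal and move the cerebrospinal fluid (CSF). Their genes are switched on by the transcription factors Foxj1 and the RFX family and are little used by other cord cells, although some carriers of the Cfap and Spag names serve non-ciliated cells as well.

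No motile cilium or axoneme gene passed the test between the groups with p-values adjusted over the 18808 genes fitted, and neither did any other gene (0.0% called). Among the 79 genes Cdhr3 came nearest, with a limma adjusted p of 0.537 (Benjamini-Hochberg), followed by Cfap73 at 0.957, and all others had 0.996 or more. At an unadjusted p under 0.05 stood 3 of the 79 genes (3.8%), beside 4.71% of all genes tested. These were Cdhr3, Cfap73 and Cfap47, all higher in AAV-NDNF cords, a direction that 1.22% of all genes took at that p. No member was lower at that p, beside 3.49% of all genes. The edgeR quasi-likelihood test on recovered whole reads called none of the 79 either, beside 0.0% of all genes. Its lowest adjusted p among them was 0.496, and 4 had an unadjusted p under 0.05, beside 4.6% of all genes. All 4 were higher, beside 1.29% of all genes in that direction. DESeq2 gave an adjusted p to 72 of the 79 and called none of these, with a minimum of 0.0929, beside 0.316% of all genes called. In DESeq2, 5 members had an unadjusted p under 0.05, beside 4.39% of all genes. All 5 were higher, beside 1.07% of all genes in that direction. In the authors' deposited table, 0 of the 79 had an adjusted p under 0.05, beside 0.266% of its genes, and 3 had a p under 0.05, beside 2.94%. A missed threshold at 3 libraries a group does not show that these genes were equal, and in bulk tissue fewer ciliated cells and less RNA per ciliated cell cannot be told apart.

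The log2 fold change is the difference of mean log2(normalized count + 1), AAV-NDNF minus AAV-GFP. It was above 0 for 52 of the 79 genes and below 0 for 27, beside 50% of all genes above 0. Its median was 0.14 over the 79 genes and -0.00 over all genes tested. Both rest on single libraries: the median was -0.0077 with 39 genes above 0 without AAV-GFP library 2, 0.015 with 40 above 0 without AAV-NDNF library 3, and 0.36 with 61 above 0 without AAV-NDNF library 2. Adding 1 to each count shrinks the fold change of low genes. The 79 genes were read in the same 6 libraries, so their signs are not independent observations.

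**Figure D1:**
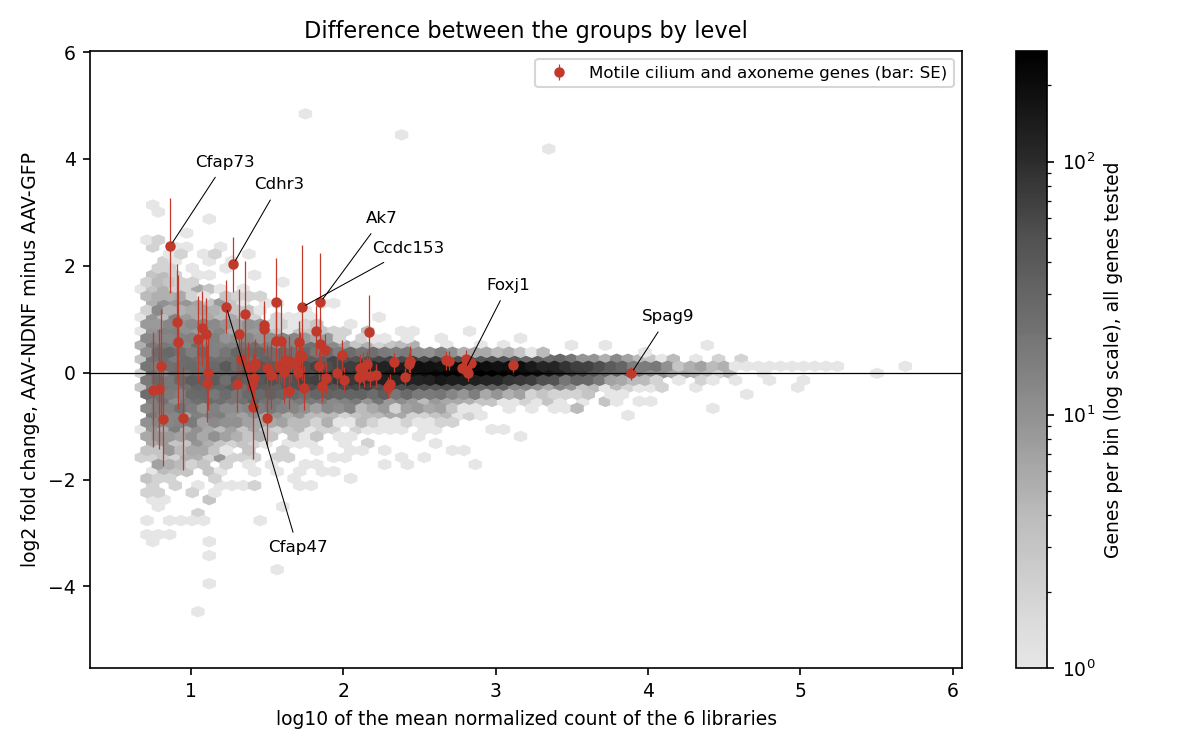
Log2 fold change (AAV-NDNF minus AAV-GFP, vertical axis) against the log10 mean normalized count of the 6 libraries (horizontal axis). Red points are the 79 motile cilium and axoneme genes with bars of 1 standard error, and grey bins count all 18808 genes tested. Foxj1 and Spag9 lie near 0, and the members farthest above 0, Cfap73 and Cdhr3, lie at low levels.

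Foxj1, the master transcription factor of motile cilium formation, showed almost no spread. It had 659, 605 and 681 normalized counts in AAV-NDNF libraries 1 to 3, against 590, 682 and 583 in AAV-GFP libraries 1 to 3. The groups overlapped, at 648.5 ± 39.4 in AAV-NDNF and 618.5 ± 55.2 in AAV-GFP cords (SD, n = 3 each), with a log2 fold change of 0.07 (SE 0.12). Its lowest and highest library differed 1.17-fold. Foxj1 lies on chromosome 11 (mm10, 116330704 to 116335399, minus strand).

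Cdhr3, a cadherin-related protein of ciliated epithelial cells, stood farthest apart by p. It had 41.2, 19.1 and 32.9 normalized counts in AAV-NDNF libraries 1 to 3, against 8.03, 3.91 and 8.54 in AAV-GFP libraries 1 to 3. Every AAV-NDNF library was above every AAV-GFP library, with means of 31.1 ± 11.1 and 6.83 ± 2.54 (SD, n = 3 each). The log2 fold change was 2.03 (SE 0.51, limma adjusted p = 0.537), and the authors' deposited table gave 2.19 with an adjusted p of 0.147. The gene lies on chromosome 12 (33033796 to 33092875, minus strand).

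Ccdc153 and Ak7 differed most between libraries among the genes listed by name that had no 0. Ccdc153, a coiled-coil protein of the nexin-dynein regulatory complex that is often used as an ependymal marker, had 62.2, 10.1 and 159.9 normalized counts in AAV-NDNF libraries 1 to 3, against 46.4, 3.91 and 37.4 in AAV-GFP libraries 1 to 3. Ak7, an adenylate kinase of motile cilia, had 106.8, 23.7 and 169.8 in the AAV-NDNF libraries, against 45.5, 7.82 and 70.5 in the AAV-GFP libraries. In both genes library 2 was the lowest of each group and the groups overlapped. The log2 fold changes were 1.22 (SE 1.16) for Ccdc153 and 1.32 (SE 0.93) for Ak7, while the lowest and highest library differed 40.9-fold and 21.7-fold. Ccdc153 lies on chromosome 9 (44240676 to 44247306, plus strand) and Ak7 on chromosome 12 (105705976 to 105782447, plus strand).

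Tmem212, a membrane protein of ependymal cells, had 5.05, 2.25 and 24.1 normalized counts in AAV-NDNF libraries 1 to 3, against 3.57, 0 and 13.9 in AAV-GFP libraries 1 to 3. Enkur, a protein inside the axonemal microtubules, had 38.7, 9.01 and 57.0 in the AAV-NDNF libraries, against 28.6, 14.7 and 53.4 in the AAV-GFP libraries. Dynlrb2, a roadblock-type dynein light chain, had 18.5, 11.3 and 43.8 in the AAV-NDNF libraries, against 16.1, 13.7 and 24.6 in the AAV-GFP libraries. All 3 genes were lowest in library 2 and highest in library 3 of both groups, and the groups overlapped. Their log2 fold changes were 0.95 for Tmem212, -0.04 for Enkur and 0.25 for Dynlrb2. They lie on chromosome 3 (27866066 to 27896368, minus strand), chromosome 2 (21180731 to 21205365, minus strand) and chromosome 8 (116504974 to 116515915, plus strand) in the order named.

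**Figure D2:**
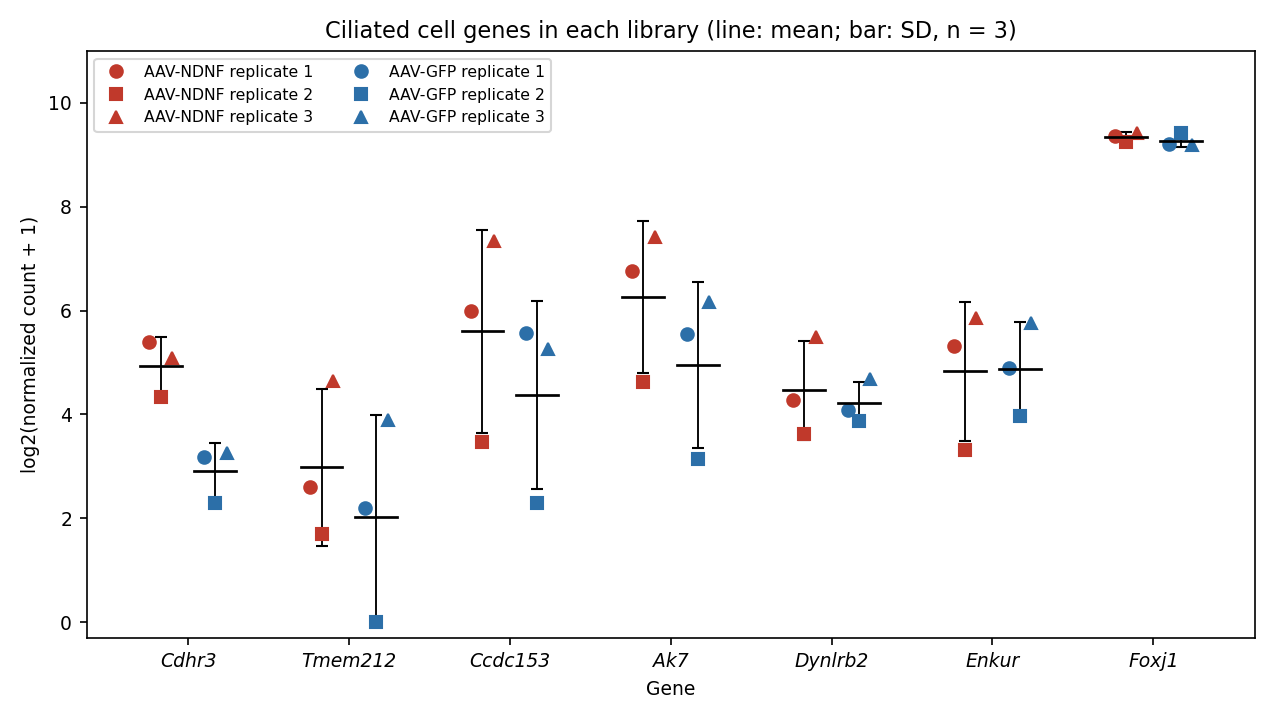
Log2(normalized count + 1) of the 7 genes listed by name (vertical axis) in each library, with AAV-NDNF in red to the left of AAV-GFP in blue, a line at the mean and a bar of 1 SD (n = 3). Squares, which mark library 2, are the lowest point of 6 of the 7 genes in both groups, and Foxj1 hardly varies.

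Promoters are shown for Cdhr3, Ccdc153 and Ak7, whose values are given above, and for Cfap298, a dynein arm assembly factor chosen for its number of RFX matches after these were seen. Each window runs from 250 bases before to 50 bases after the start site, 5′ to 3′ on the gene's strand, and comes from RefSeq (GRCm38.p6). Capitals mark matches on either strand to the RFX core GTTGCC, the RFX palindrome GTNNCCNNGGNNAC, which can hold the core, or the FOX core GTAAACA. The window of Cdhr3 is chr12:33092826-33093125 (minus strand), that of Ccdc153 chr9:44240427-44240726 (plus strand), that of Ak7 chr12:105705732-105706031 (plus strand) and that of Cfap298 chr16:90934800-90935099 (minus strand).
Cdhr3: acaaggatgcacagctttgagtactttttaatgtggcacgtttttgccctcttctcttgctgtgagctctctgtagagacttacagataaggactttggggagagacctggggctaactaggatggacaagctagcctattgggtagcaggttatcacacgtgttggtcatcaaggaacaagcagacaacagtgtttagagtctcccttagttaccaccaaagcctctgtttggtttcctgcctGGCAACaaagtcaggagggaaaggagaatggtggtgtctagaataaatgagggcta
Ccdc153: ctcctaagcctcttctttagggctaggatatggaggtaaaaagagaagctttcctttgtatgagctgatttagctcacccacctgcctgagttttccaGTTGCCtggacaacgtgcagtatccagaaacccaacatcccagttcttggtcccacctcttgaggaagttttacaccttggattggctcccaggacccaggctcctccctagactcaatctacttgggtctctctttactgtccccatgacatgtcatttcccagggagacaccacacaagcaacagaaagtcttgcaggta
Ak7: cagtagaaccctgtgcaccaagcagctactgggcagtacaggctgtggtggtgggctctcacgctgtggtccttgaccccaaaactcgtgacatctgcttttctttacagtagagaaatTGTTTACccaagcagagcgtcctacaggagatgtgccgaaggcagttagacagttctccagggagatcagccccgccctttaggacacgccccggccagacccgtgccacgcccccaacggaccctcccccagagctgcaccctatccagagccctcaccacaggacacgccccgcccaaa
Cfap298: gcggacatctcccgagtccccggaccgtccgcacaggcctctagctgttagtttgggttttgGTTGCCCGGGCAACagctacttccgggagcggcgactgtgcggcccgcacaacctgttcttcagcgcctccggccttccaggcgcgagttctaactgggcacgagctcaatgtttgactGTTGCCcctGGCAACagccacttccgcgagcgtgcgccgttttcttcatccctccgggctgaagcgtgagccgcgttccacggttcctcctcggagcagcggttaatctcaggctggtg

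Positions are those of the leftmost base of a match as printed, counted from the start site. The RFX core lay at -6 on the opposite strand in Cdhr3 and at -152 on the gene's strand in Ccdc153. Ak7 held the FOX core, on the opposite strand, at -131, and no RFX core in this window. Cfap298 held 4 copies of the RFX core and 1 palindrome, whose first base lay at -188. Of the 79 genes, 60 had a promoter in the table. The RFX core was present in 24 of these 60 (40.0%), beside 15.0% of the 13010 tested genes with a promoter and 14.1% of all 27025 genes of the promoter table. The palindrome was present in 8 (13.3%), beside 2.64% of tested genes, and the FOX core in 4 (6.67%), beside 3.17%. A gene with several promoters was counted as holding a motif where any of them did. A match describes these letters only and says nothing of binding.

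The dynein heavy chains, the motors of the inner and outer arms, numbered 15. Of these, 11 had a log2 fold change above 0 and their median was 0.20. Dnah17 had the highest count of them, at 196.0, 219.6 and 278.2 in AAV-NDNF libraries 1 to 3, against 205.3, 212.1 and 182.6 in AAV-GFP libraries 1 to 3 (log2 fold change 0.20). Exons of Dnah17 overlap those of Pgs1 on the opposite strand, so its value is uncertain. Dnah12, an inner arm chain, had 34.5, 28.2 and 51.5 in the AAV-NDNF libraries, against 28.6, 11.7 and 25.6 in the AAV-GFP libraries, with a single AAV-NDNF library below AAV-GFP library 1 (0.81, SE 0.43). Dnah7b had 217.8, 155.4 and 159.9 in the AAV-NDNF libraries, against 221.4, 234.5 and 184.8 in the AAV-GFP libraries, and went the other way (-0.27). The widest spread of the heavy chains was in Dnah6, named here after its values were seen, with 64.8, 19.1 and 59.2 in the AAV-NDNF libraries, against 27.7, 2.93 and 44.9 in the AAV-GFP libraries. Reads of Dnah7a, Dnah7b and Dnah7c can be split between near-identical copies, so their values are uncertain.

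Of the 5 dynein intermediate and light chains, 1 was above 0 and the median was -0.07. Dnai4 had 148.9, 143.0 and 145.7 in AAV-NDNF libraries 1 to 3, against 153.6, 128.0 and 182.6 in AAV-GFP libraries 1 to 3, all inside the AAV-GFP range (-0.07). Dnai3, close to the level limit, was low in library 2 of both groups, and its within-group SD of 1.62 on the log2 scale was the widest of the 5. The 3 dynein arm assembly factors, which act in the cytoplasm before the arms are docked, had a median log2 fold change of 0.16, with 2 above 0.

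Of the 10 radial spoke genes, 7 were above 0, with a median of 0.20. Rsph1, a spoke head protein, had 72.3, 38.3 and 147.9 in AAV-NDNF libraries 1 to 3, against 52.7, 25.4 and 58.7 in AAV-GFP libraries 1 to 3. Its AAV-NDNF library 2 lay inside the AAV-GFP range (0.78, SE 0.47). Rsph3a had the highest count of the group, with 138.8, 158.8 and 184.0 in the AAV-NDNF libraries, against 194.6, 126.1 and 182.6 in the AAV-GFP libraries, and overlapped fully (-0.05). Rsph3a and Rsph3b are near-identical copies, and Rsph10b shares exon sequence with neighbouring genes, so these are uncertain.

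Of the 10 central pair genes, 9 were above 0, with a median of 0.21. Cfap47, a central pair protein, had 23.6, 21.4 and 26.3 in AAV-NDNF libraries 1 to 3, against 14.3, 4.89 and 11.7 in AAV-GFP libraries 1 to 3. All 3 AAV-NDNF values were above the AAV-GFP values (1.24, SE 0.50, limma adjusted p = 0.996). Cfap74 was the exception below 0, with 185.0, 149.8 and 228.9 in the AAV-NDNF libraries, against 225.9, 218.9 and 202.9 in the AAV-GFP libraries (-0.22). Cfap65, named here after its values were seen, had 259.9, 64.2 and 230.0 in the AAV-NDNF libraries, against 165.2, 38.1 and 121.8 in the AAV-GFP libraries, so that library 2 of each group lay below all other libraries. Spag6 and Spag6l are close copies and are uncertain.

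Of the 4 genes of the nexin-dynein regulatory complex, which links neighbouring doublets, 3 were above 0 (median 0.05). Drc1 had 52.99, 24.8 and 77.8 in AAV-NDNF libraries 1 to 3, against 65.2, 39.1 and 73.7 in AAV-GFP libraries 1 to 3 (-0.28). Drc3 had 109.3, 120.5 and 159.9 in the AAV-NDNF libraries, against 153.6, 79.2 and 146.3 in the AAV-GFP libraries (0.08). The groups of both genes overlapped.

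The 5 genes of the inner arm tether and base had a median of 0.43, with 3 above 0. Cfap73, a protein at the base of an inner dynein arm, had 13.5, 6.76 and 16.4 in AAV-NDNF libraries 1 to 3, against 0.893, 0 and 6.41 in AAV-GFP libraries 1 to 3. The groups did not overlap, but AAV-NDNF library 2 and AAV-GFP library 3 nearly met (2.37, SE 0.89, limma adjusted p = 0.957). Its exons overlap those of Ddx54 on the opposite strand, so the value is uncertain.

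Of the 9 microtubule inner proteins, which line the inside of the doublets, 3 were above 0 and the median was -0.10. Cfap53, named after its values were seen, had the lowest log2 fold change of the 9, at -0.85, with 8.41, 0 and 17.5 in AAV-NDNF libraries 1 to 3, against 8.93, 9.77 and 8.54 in AAV-GFP libraries 1 to 3. AAV-NDNF library 3 was the highest of the 6 and AAV-NDNF library 2 held no read.

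The other 8 genes of ciliated cells had a median of 0.81, with 6 above 0. Besides Cdhr3, Cfap99 was without overlap, at 71.5, 27.0 and 25.2 in AAV-NDNF libraries 1 to 3, against 17.9, 17.6 and 22.4 in AAV-GFP libraries 1 to 3 (0.90, named after its values were seen). Cfap97d2 had 39.5, 10.1 and 20.8 in the AAV-NDNF libraries, against 43.7, 24.4 and 50.2 in the AAV-GFP libraries, with overlapping groups (-0.86). In all, 4 of the 79 genes had groups without overlap (5.06%), beside 9.81% of all genes tested. All 4 were higher in AAV-NDNF cords, a direction taken by 4.31% of all genes, and 5.5% were lower without overlap. This direction rests on single libraries. Without AAV-GFP library 2, 5 members were higher and 5 lower without overlap, beside 9.17% and 10.6% of all genes. Without AAV-NDNF library 3 the counts were 5 higher and 6 lower, beside 10.8% and 11.7%, and without AAV-NDNF library 2 they were 22 higher and 1 lower, beside 7.22% and 8.26%.

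The 9 genes with no motile cilium role assigned include the most abundant members, and 6 were above 0 (median 0.12). Spag9, a scaffold of JNK signalling and vesicle transport, had 8712, 7929 and 6562 in AAV-NDNF libraries 1 to 3, against 7203, 8496 and 7622 in AAV-GFP libraries 1 to 3 (-0.01). Cfap36 had 1047, 1419 and 1665 in the AAV-NDNF libraries, against 1162, 1090 and 1458 in the AAV-GFP libraries (0.14). Spag7 had 594, 626 and 875 in the AAV-NDNF libraries, against 642, 524 and 562 in the AAV-GFP libraries (0.26). Groups overlapped in all 3 genes.

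Levels between genes were compared as mean normalized counts per kilobase of exon, for the 70 of 79 genes with a length. Spag9 was highest at 691.8 per kilobase, followed by Cfap36 at 476.3, Spag7 at 430.5 and Foxj1 at 241.5. Of the genes with a structural role, Cfap20, a microtubule inner protein, had 110.7 per kilobase and Rsph3a 54.5, while Rsph1 had 48.0 and Ccdc153 26.2. Ak7 had 16.8, Cdhr3 4.15 and Dnah8, the lowest, 0.465 per kilobase (Cfap20 and Dnah8 named after their values were seen). As counts, 40 of the 79 genes had a mean under 50.

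The axonemal genes varied mainly between libraries of the same group. AAV-GFP library 2 was the lowest of the 6 for 38 of the 79 genes (48.1%) and AAV-NDNF library 2 for 24 (30.4%), which together are 62 genes (78.5%), beside 33.6% of all genes tested. AAV-NDNF library 3 was the highest for 42 genes (53.2%), beside 25.7% of all genes. Library 2 was the lowest of its group in both groups at once for 42 genes (53.2%), beside 8.90% of all genes. As the median over the 79 genes of the log2 deviation from the mean of the 6 libraries, AAV-NDNF libraries 1 to 3 stood at 0.19, -0.31 and 0.48, against 0.08, -0.38 and 0.09 for AAV-GFP libraries 1 to 3. The library labels give the number 2 no shared batch or animal.

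**Figure D3:**
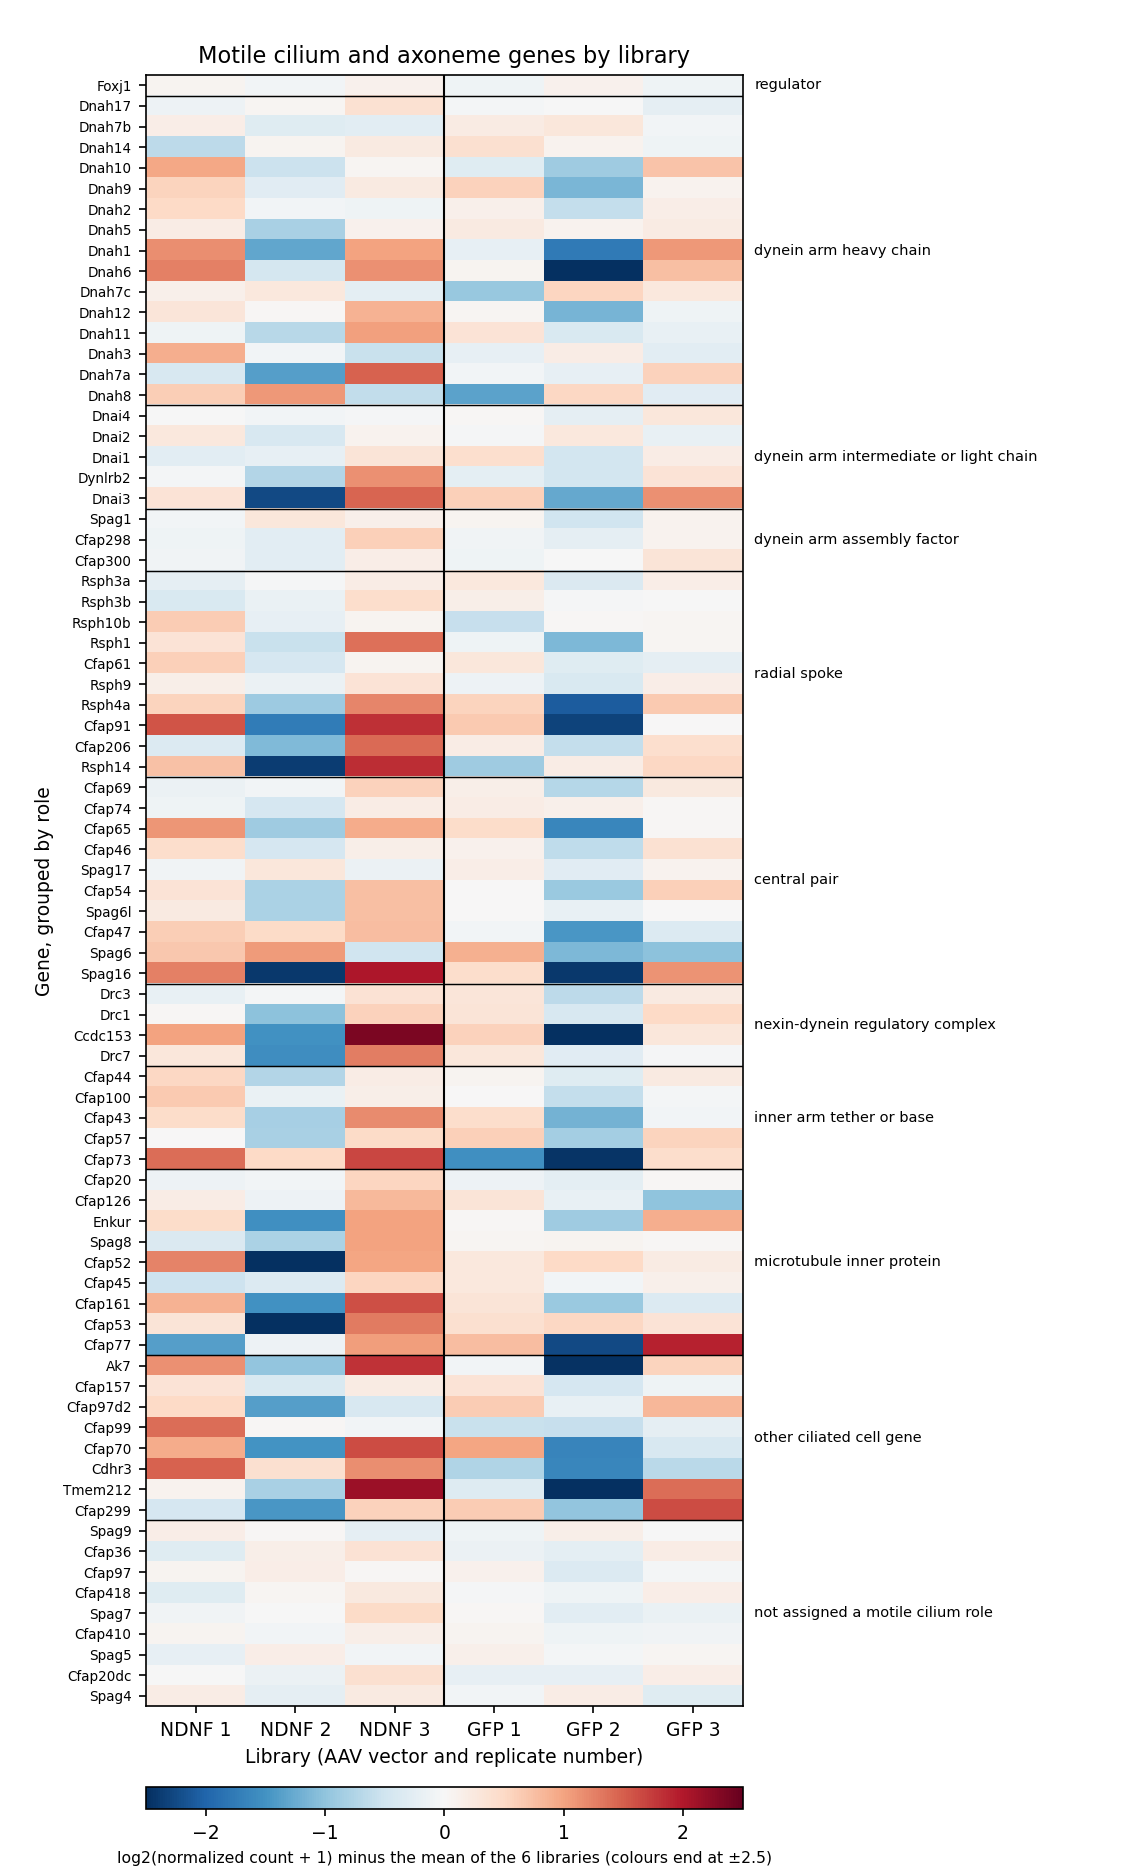
Each row is 1 of the 79 genes, grouped by role, and each column a library, AAV-NDNF left of AAV-GFP. Colour is log2(normalized count + 1) minus the mean of the 6 libraries, ending at ±2.5: library 2 is blue in most rows of both groups, AAV-NDNF library 3 is red in most, and Foxj1 and the genes with no cilium role are pale.

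The within-group SD on the log2 scale was above 1 for 21 of the 79 genes, and 7 genes had 0 counts in at least 1 library. Of the 72 genes without a 0, 10 differed over 10-fold between the lowest and highest library. Low counts alone widen the SD, so members were set beside all genes of like level. For means of 5 to 20 normalized counts the median SD was 1.18 over 15 members and 0.78 over 2872 genes. For means of 20 to 50 the median SD was 0.67 over 25 members and 0.47 over 1909 genes. For means of 50 to 100 it was 0.57 over 15 members and 0.35 over 1617 genes. For means of 100 to 200 the medians were close, at 0.28 over 10 members and 0.26 over 2018 genes. For means of 200 or more it was 0.22 over 14 members and 0.17 over 10392 genes. These medians are a description, with no test.

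**Figure D4:**
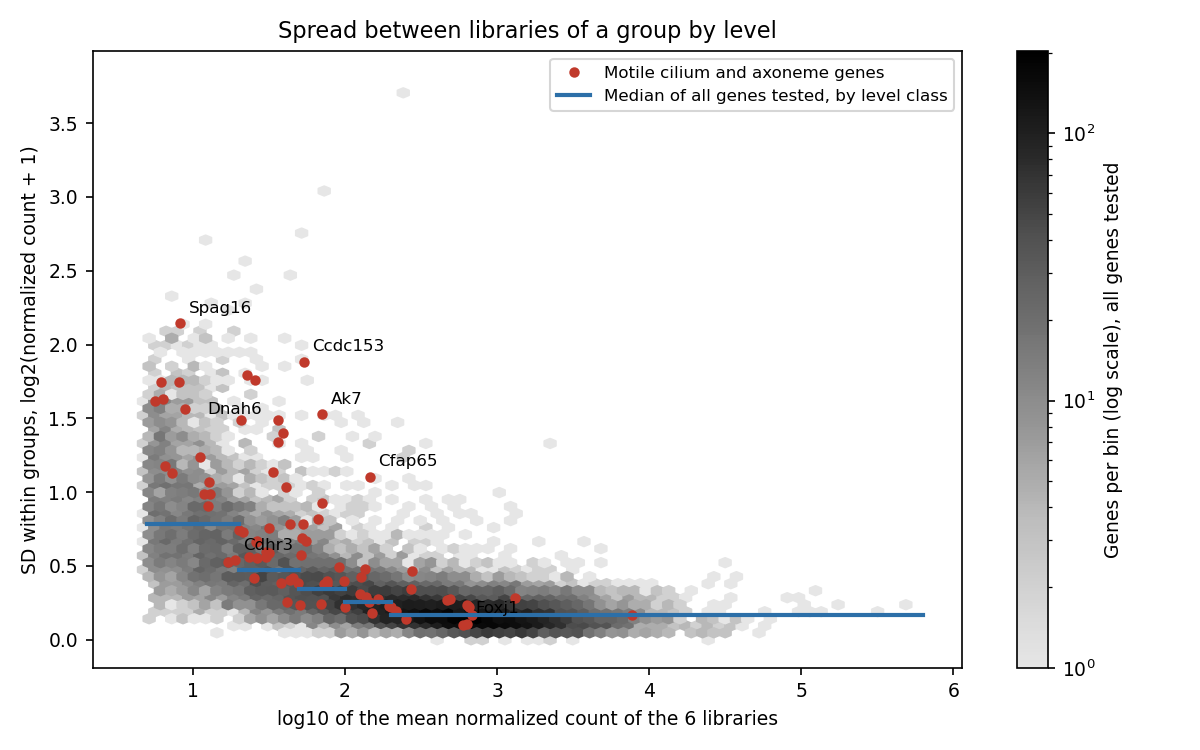
Within-group SD of log2(normalized count + 1) (vertical axis) against the log10 mean normalized count (horizontal axis). Red points are the 79 motile cilium and axoneme genes, grey bins all genes tested, and blue lines the median of all genes in each level class. Members at 20 to 100 normalized counts lie mostly above the blue lines, and Foxj1 lies low.

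Without both library 2, an alternative chosen after these values were seen, 7 of the 79 genes reached an unadjusted p under 0.05 (8.86%), beside 3.65% of all genes, and 0 reached an adjusted p under 0.05, beside 0.122% of all genes. Groups without overlap were 31 (39.2%), beside 27.8% of all genes. Of these, 24 were higher in AAV-NDNF cords and 7 lower, beside 13.3% and 14.5% of all genes. The 7 at the unadjusted limit were Ak7, Ccdc153, Cdhr3, Cfap65, Cfap73, Cfap91 and Rsph1. All 7 were higher in AAV-NDNF cords, a direction that 0.925% of all genes took at that limit. With AAV-NDNF library 2 alone left out the count was 10 (12.7%), beside 3.24% of all genes. All 10 were higher, beside 0.665% of all genes in that direction. With AAV-GFP library 2 alone left out the count was 1, also higher, beside 4.73% of all genes in both directions and 1.39% higher. The count at this looser limit thus rests on which library 2 is kept.

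Motile cilium genes outside the name rule were read beside the members. Of 59 listed genes, 44 were tested, 22 had a log2 fold change above 0 and the median was 0.00. Their median deviations were 0.06, -0.22 and 0.35 in AAV-NDNF libraries 1 to 3, against 0.06, 0.02 and 0.09 in AAV-GFP libraries 1 to 3. In this median AAV-NDNF library 2 was thus low and AAV-NDNF library 3 high, while AAV-GFP library 2 was not low. Single genes differed: AAV-GFP library 2 was the lowest of its group for 20 of the 44, beside 39.6% of all genes, and the highest for 12. Library 2 was the lowest of its group in both groups for 12 of the 44, beside 8.90% of all genes. The list also held abundant genes, such as Tppp3 with a mean of 3511. At an unadjusted p under 0.05 was 1 gene of the 44, beside 1.22% of all genes higher at that p (limma). This gene was Spef1, a microtubule-bundling protein of the central pair. It had 122.8, 98.0 and 126.0 in the AAV-NDNF libraries, against 108.0, 67.4 and 59.8 in the AAV-GFP libraries (0.59, limma adjusted p = 0.996). Of 28 tested genes for intraflagellar transport and the BBSome, which serve cilia both motile and not, 18 were above 0 and the median was 0.03. In this list 2 genes were higher and 1 lower without overlap, beside 4.31% and 5.5% of all genes. At an unadjusted p under 0.05 (limma) 1 was higher, beside 1.22% of all genes. This was Ift88, a core transport particle protein, with 386.9, 388.5 and 388.9 in the AAV-NDNF libraries, against 277.6, 321.5 and 284.1 in the AAV-GFP libraries, without overlap (0.40, limma adjusted p = 0.865). The lower gene was Ift43, named after its values were seen (-0.15).

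Ependymal genes outside the cilium were read beside the axonemal genes. Of 12 tested, 2 were above 0, the median was -0.07 and none was free of overlap. At an unadjusted p under 0.05 (limma) 2 were lower, Vim and S100a6, beside 3.49% of all genes, and none was higher. Rarres2, an ependymal marker named here after its values were seen, had a log2 fold change of -0.01. Library 2 was the lowest of its group in both groups for 3 of the 12, beside 8.90% of all genes. AAV-GFP library 2 was the highest of its group for 6. Cd24a, a surface protein of ependymal and other immature or epithelial cells, had 1426, 1669 and 2221 in AAV-NDNF libraries 1 to 3, against 1588, 1476 and 1637 in AAV-GFP libraries 1 to 3, with overlapping groups (0.15). Vim, an intermediate filament protein also made by reactive astrocytes, had 3465, 2366 and 4525 in the AAV-NDNF libraries, against 4627, 4811 and 4355 in the AAV-GFP libraries (-0.46, limma adjusted p = 0.996). S100a6, a calcium-binding protein, had 230.4, 215.1 and 475.4 in the AAV-NDNF libraries, against 459.8, 543.4 and 351.4 in the AAV-GFP libraries (-0.63, limma adjusted p = 0.996). In Vim and S100a6, AAV-NDNF library 3 lay inside the AAV-GFP range and AAV-GFP library 2 was the highest. The list's median deviations were -0.17, -0.23 and 0.25 in AAV-NDNF libraries 1 to 3, against 0.07, 0.02 and 0.05 in AAV-GFP libraries 1 to 3.

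CSF-contacting neurons sit in the ependymal layer of the central canal. All 5 of their listed genes had a log2 fold change above 0 (median 0.78), beside 50% of all genes. At an unadjusted p under 0.05 (limma), 2 were higher, beside 1.22% of all genes, and 2 were higher without overlap, beside 4.31%. Pkd2l1, their ion channel, had 256.5, 251.1 and 288.1 in AAV-NDNF libraries 1 to 3, against 209.8, 216.0 and 145.3 in AAV-GFP libraries 1 to 3, without overlap (0.50, limma adjusted p = 0.969). Gata3, a transcription factor of these neurons, had 26.1, 24.8 and 29.6 in the AAV-NDNF libraries, against 4.46, 20.5 and 13.9 in the AAV-GFP libraries, also without overlap (1.20, limma adjusted p = 0.996). The summed level of the 5 genes was 530.4 to 651.8 in AAV-NDNF libraries and 343.9 to 492.8 in AAV-GFP libraries. The list's share in the axonemal values was not tested.

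Choroid plexus is a further tissue with cilia. Of its 10 listed genes with a row, 4 reached a mean of 5 and were tested. Of these, 2 had a log2 fold change above 0, Kl (0.70) and Clic6 (0.37), while Prlr (-0.11) and Slc4a5 (-0.06) were below 0. The median was 0.15. Ttr, the defining marker of the tissue (named after its values were seen), had a mean of 1.72 and was not tested. It had 0 in all 3 AAV-NDNF libraries, against 5.36, 3.91 and 1.07 in AAV-GFP libraries 1 to 3. In those AAV-GFP libraries 1 read equals 0.893, 0.977 and 1.07 normalized counts, so Ttr rests on very few reads. Dorsal horn neuron genes, markers of cord outside the ventral part, were lowest in AAV-GFP library 2. Their summed level was 718 to 945 in AAV-NDNF libraries and 407 to 1166 in AAV-GFP libraries, and the median deviations were -0.17, 0.31 and -0.03 in AAV-NDNF libraries 1 to 3, against 0.47, -1.06 and 0.30 in AAV-GFP libraries 1 to 3. AAV-GFP library 2 was thus low for both dorsal horn and axonemal genes, while AAV-NDNF library 2 was low for axonemal genes and not for dorsal horn genes, where its summed level of 911 lay inside the range of the other libraries. AAV-GFP library 2 was also the highest of its group for 6 of 6 oligodendrocyte genes (median deviation 0.30) and 5 of 6 motor neuron genes. The part of the dissection in the axonemal values was not tested.

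**Figure D5:**
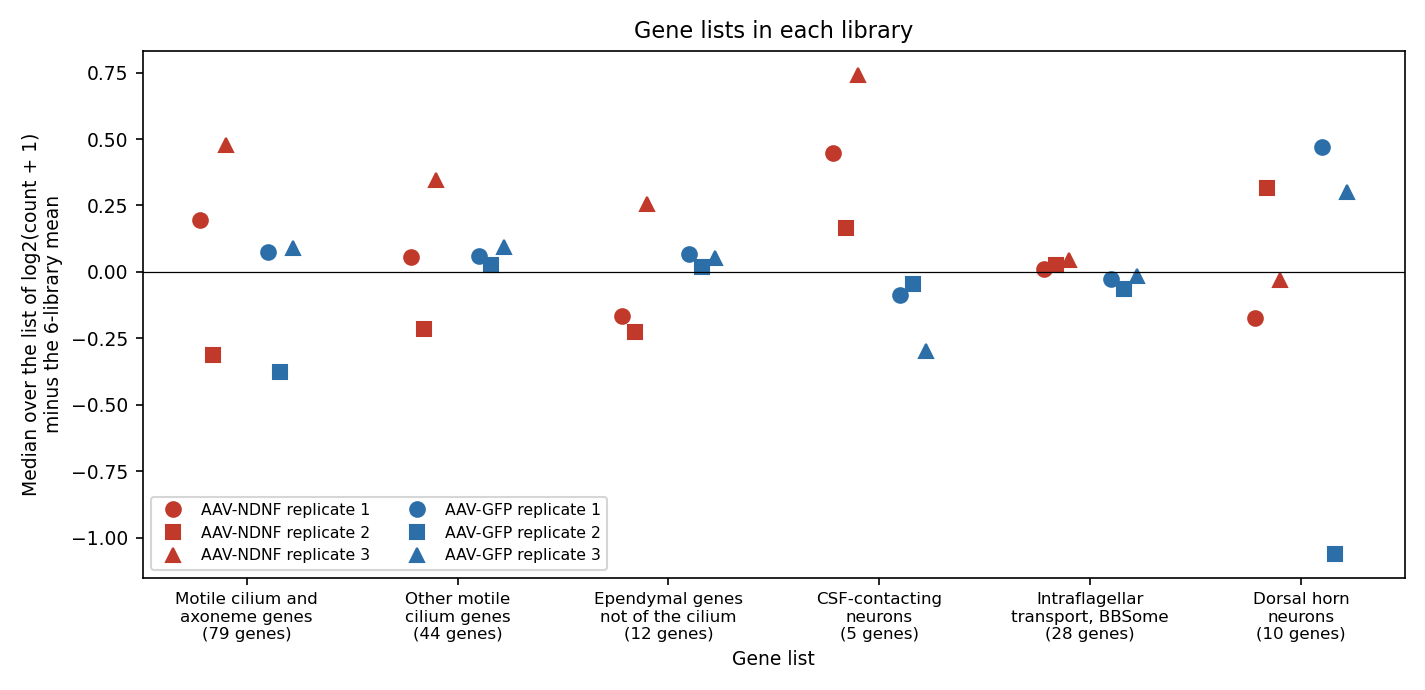
Median over each gene list of log2(normalized count + 1) minus the 6-library mean (vertical axis), for AAV-NDNF (red, left) and AAV-GFP (blue, right). Squares mark library 2: both squares are low for the 79 motile cilium and axoneme genes, and only the AAV-GFP square is low for dorsal horn genes.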

How the data were processed

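Polyadenylated RNA libraries from 3 AAV-NDNF and 3 AAV-GFP cords were sequenced on the NovaSeq platform (labels' protocols). Tools named in the submitters' processing notes are cutadapt, HISAT2, HTSeq and DESeq2, with build mm10. Versions, annotation and strand setting are not given in the sources used here. The authors deposited a normalized signal, read counts divided by 1 size factor per library, which gave back whole reads for 100% of values (tolerance 0.001). They also deposited log2 fold changes with errors, p-values and adjusted p-values, and a Wald score.

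Genes with a mean of at least 5 over the 6 libraries (18808 of 28162) were fitted with limma 3.58.1 (trend, robust, two-sided) on log2(normalized count + 1), in R 4.3.3, with Benjamini-Hochberg adjustment at 0.05. This level filter is blind to group, so all 79 members entered. The recovered counts were refitted with edgeR 4.0.16 (quasi-likelihood) and DESeq2 1.42.0. Other alternatives were TMM and upper-quartile scaling, other filters and pseudocounts, a replicate block, and leaving out libraries. The fit was tested on simulated data.

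Genes named with values are the 7 listed by name, per symbol family the highest mean and smallest p, the 3 smallest p in each direction, the 3 nearest the level limit on each side, up to 4 of each list, and Ndnf; others are said to be chosen later. Members and gene lists were chosen with earlier results of these data known. Replicates are described as biological, but their animals were not given, so p-values measure the spread between these libraries. With 3 against 3 an exact permutation test cannot go below 0.1. Coordinates and lengths come from GENCODE M21, which held 70 of the 79 symbols. Exons of 28 members overlap another gene, 10 of them a protein-coding gene on the opposite strand, and without a known strand setting their reads cannot be told apart. Plots used matplotlib 3.10.9.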

Additional observations from a re-analysis of the deposited data

How the results depend on the processing

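No motile cilium or axoneme gene passed the adjusted threshold under any alternative run (DESeq2 gave no adjusted p to 7 of the 79). Over all genes the limma count of 0 called (885 at an unadjusted p under 0.05; edgeR also 0 called) became 3 with no filter on low values, 56 with DESeq2, 7 with a replicate block, 23 without both library 2 and 0 to 48 when leaving out 1 library at a time (48 without AAV-GFP library 2), where the unadjusted count ran from 609 to 1628. The 3 members at an unadjusted p under 0.05 became 0 of 39 tested at a mean of at least 50, beside 4.43% of all genes there. With DESeq2 the count was 5, beside 4.39%, and without both library 2 it was 7, beside 3.65%. Without 1 library it ran from 1, beside 4.73% without AAV-GFP library 2, to 10, beside 3.24% without AAV-NDNF library 2. The 52 members above 0 became 25 of 39 tested at a mean of at least 50. The 4 without overlap all had means under 50, so 0 were left at a mean of at least 50. The count became 31 without both library 2 (beside 27.8% of all genes) and 7 to 23 without 1 library. The 7, or 8.86%, stood beside 17.7% of all genes without AAV-GFP library 3. The 23, or 29.1%, stood beside 15.5% without AAV-NDNF library 2. The members' median of 0.14 was 0.21 with both edgeR and DESeq2, each with 59 above 0, and -0.0077 to 0.36 without 1 library, with 39 to 62 above 0. Over all genes tested, deviations of same-numbered libraries had correlations of -0.06, 0.06 and 0.06. Pairing within the 79 genes alone was not tested. The replicate block moved the members at an unadjusted p under 0.05 from 3 to 8, beside 4.59% of all genes. All 8 were higher, beside 1.12% of all genes in that direction. The median of the CSF-contacting neuron list was 0.50 at a mean of at least 50 and 0.49 to 0.89 without 1 library. Without 1 library, that of the intraflagellar transport list ran from 0.021 to 0.081 and that of the meninges list from -0.24 to -0.057. Without both library 2 the choroid plexus median was -0.19 and the astrocyte median -0.052. The sign of 12 named members turned. Spag9 was 0.0078 with upper-quartile scaling and 0.029 without both library 2, Rsph14 -0.075 with a pseudocount of 0.5, Dnai3 0.038 with edgeR, 0.027 with DESeq2 and 0.018 without both library 2, Enkur 0.13, 0.12 and 0.26 under the same settings, and Drc3 -0.18 without both library 2. Without 1 library, Spag9 ran from -0.10 to 0.10, Rsph14 from -0.76 to 1.35, Dnai3 from -1.12 to 0.73, Enkur from -0.56 to 0.71, Cfap77 from -1.50 to 0.59, Rsph3a from -0.24 to 0.071, Drc3 from -0.22 to 0.25, Drc1 from -0.64 to 0.16, Dnai4 from -0.20 to 0.056, Tmem212 from -0.062 to 1.89, Cfap36 from -0.0093 to 0.33 and Dynlrb2 from -0.26 to 0.67. The cause of these moves was not tested. Counting error is wide for the 15 members with means of 5 to 20.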

Other observations

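Genes of other cord cell types, read as background for the axonemal values, stood as follows. All 8 microglial genes had a log2 fold change below 0 (median -0.40). Of these, 5 were at an unadjusted p under 0.05, beside 3.49% of all genes lower at that p, with none past the adjusted threshold in limma. Csf1r, the receptor that keeps microglia alive, had 3274, 3221 and 3016 normalized counts in AAV-NDNF libraries 1 to 3, against 4489, 4545 and 4315 in AAV-GFP libraries 1 to 3, without overlap (log2 fold change -0.49, limma adjusted p = 0.346). C1qb, a complement subunit, had 1829, 1983 and 2413 in the AAV-NDNF libraries, against 3549, 2740 and 3291 in the AAV-GFP libraries, also without overlap (-0.62, limma adjusted p = 0.424). All 8 astrocyte genes were below 0 as well (median -0.15), among them Gfap, the astrocyte intermediate filament, at -0.36 (limma adjusted p = 0.969). Of 8 meningeal and fibroblast genes 2 were above 0 (median -0.19), of 6 motor neuron genes 4 (median 0.05) and of 6 oligodendrocyte genes 3 (median -0.01). Motor neuron genes had a summed level of 6347 to 7329 in AAV-NDNF libraries and 6108 to 7419 in AAV-GFP libraries, so the labelled ventral tissue held them in every library.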
